A study of Populus tomentosa with 15 samples.

Results

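This comparison set the 3 RNA-seq libraries of PtomitAPX-overexpression cells given H2O2 (OX-H) against the 3 libraries of PtomitAPX-antisense cells given ascorbate (anti-3-A), 6 of the 15 libraries of the series. All were suspension cells of the Chinese white poplar Populus tomentosa, grown in the dark and collected 5 days after subculture. OX-H cells carry PtomitAPX under the constitutive 35S promoter and received 10 mM H2O2 for 3 h. The anti-3-A cells are 1 antisense line, anti-3, that received 1 mM ascorbate (AsA) for 3 h. The untreated lines, OX and anti-3, and the untreated wild type, WT, gave 3 libraries each and were used as points of reference. The overexpressing cells needed the cytokinin 6-BA for growth, so genotype, treatment and possibly medium differ between OX-H and anti-3-A, and these cannot be told apart from the 6 libraries alone. No WT library of the series came from cells given either agent, and no mock-treated library was analysed here. Nothing in the labels says whether the 3 libraries of a group came from separate cultures, so the p-values measure the spread between these libraries, which may be technical.

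Ascorbate peroxidase (APX) uses ascorbate to reduce H2O2 to water. PtomitAPX is a mitochondrial form of the enzyme, and the respiratory chain of the mitochondrion is a main source of H2O2 in plant cells kept in the dark. H2O2 is harmful at high levels but also serves as a signal, and class III peroxidases of the cell wall use it to cross-link wall polymers. Ascorbate is both the substrate of APX and a reductant in its own right. The comparison asked how far the transcriptomes of the lines lie apart when each has received the agent meant to bring its H2O2 level back, namely H2O2 for the line with more APX and ascorbate for the line with less. The paper describes the H2O2 content of the overexpressing cells as decreased, but reports no significant difference from WT in their mitochondria. The feature ID of PtomitAPX is not given in the sources used here, so its own level was not checked in these libraries.

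The libraries held 15618191 to 17889817 reads in OX-H and 16842815 to 17695808 in anti-3-A, as worked back from the deposited values. Expression is given as FPKM, reads scaled by gene length and by the mapped total of the library. Within a group, libraries correlated at 0.990 or more (Pearson's r of log2(FPKM + 1) across genes), against 0.879 to 0.896 between OX-H and anti-3-A. In a principal component analysis of all 15 libraries the first component (51.8% of the variance) set the 6 untreated OX and anti-3 libraries (76.1 to 83.2) apart from OX-H, anti-3-A and WT (-57.3 to -49.3). The second (35.2%) placed OX-H between -86.2 and -82.4, OX between -46.4 and -40.3, and anti-3-A, anti-3 and WT between 36.0 and 46.7. The 10 most abundant genes took 4.94 to 5.18% of the summed FPKM in OX-H, against 3.05 to 3.21% in anti-3-A. The part of this difference in composition in the results below was not tested. In bulk RNA, fewer cells of a type and less RNA per cell cannot be told apart.

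Genes reaching 1 FPKM in 3 or more of the 6 libraries were tested, which kept 23422 of the 32560 features with a read in any of them. Differentially expressed genes (DEGs) were those with an adjusted p below 0.001 (limma with Benjamini-Hochberg adjustment) and an absolute log2 fold change above 1.5, where fold changes are on the log2(FPKM + 1) scale and understate the change of low genes. OX-H differed from anti-3-A in 1688 DEGs, 7.21% of the genes tested. Of these, 1057 (4.51%) were higher and 631 (2.69%) lower in OX-H. All 1688 had OX-H and anti-3-A libraries that did not overlap, but so did 74.5% of all genes tested. The median log2 fold change over all genes was -0.13, and 70.4% of DEGs were higher in OX-H, in place of 62.6%, after the library medians were aligned. With a threshold of 1.5-fold in place of 1.5 on the log2 scale the balance turned round, with 3594 genes higher and 4940 lower (42.1% higher). The fold change passed 2 on the log2 scale in 845 DEGs and 4 in 73.

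**Figure D1:**
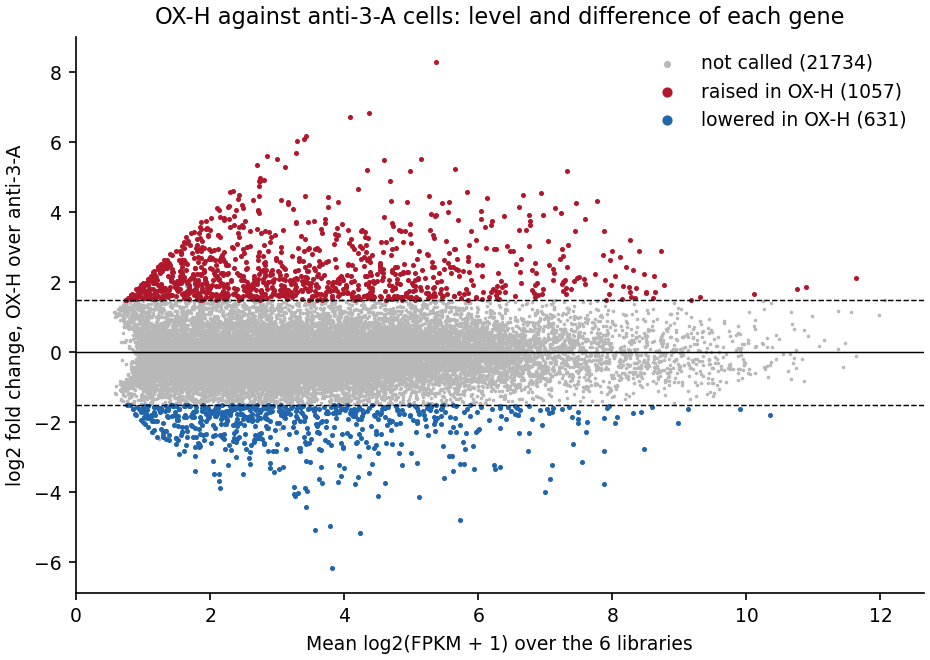
Each point is 1 of the 23422 genes tested, with its mean log2(FPKM + 1) over the 6 libraries on the x axis and its log2 fold change, OX-H over anti-3-A, on the y axis. Dashed lines mark the fold change threshold of 1.5. In OX-H 1057 genes were called higher (red) and 631 lower (blue), and genes at the lowest levels cannot pass the threshold on this scale.

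The untreated lines differed less. OX against anti-3 gave 843 DEGs (3.60%), 459 higher (1.96%) and 384 lower (1.64%) in OX. These libraries are not among the 6 above, but the filter on genes used those 6. Genes that reached 1 FPKM only in untreated cells were therefore not tested. In both comparisons 584 genes were called with the same direction, which is 34.6% of the 1688 treated DEGs and 69.3% of the 843 untreated DEGs. The share was alike for raised genes (365 of 1057) and lowered genes (219 of 631). A further 1103 DEGs were called between the treated lines only and 258 between the untreated lines only. When every feature above 0 in any of the 6 libraries was kept, 1681 treated and 907 untreated DEGs were called. Of these, 581 were called in both comparisons with the same direction. A call in 1 comparison and not in the other does not show that they differ, so the change of the line difference with treatment was tested as well. It was called for 554 genes (2.37% of those tested), with a more positive OX-H minus anti-3-A difference in 386 of them and a more negative one in 168. Among the 1103 treated-only DEGs, this change was called for 326. The remaining treated-only DEGs had a line difference whose change with treatment did not pass the thresholds. POPTR_0003s11470, named here after its values were seen, was the only gene called in both comparisons with opposite directions. It had 55.5, 49.3 and 57.1 FPKM in OX-H against 13.2, 13.0 and 12.8 in anti-3-A, and 61.7, 65.5 and 75.3 in OX against 172, 192 and 230 in anti-3. OX-H was thus above anti-3-A in every library, while OX was below anti-3 in every library.

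**Figure D2:**
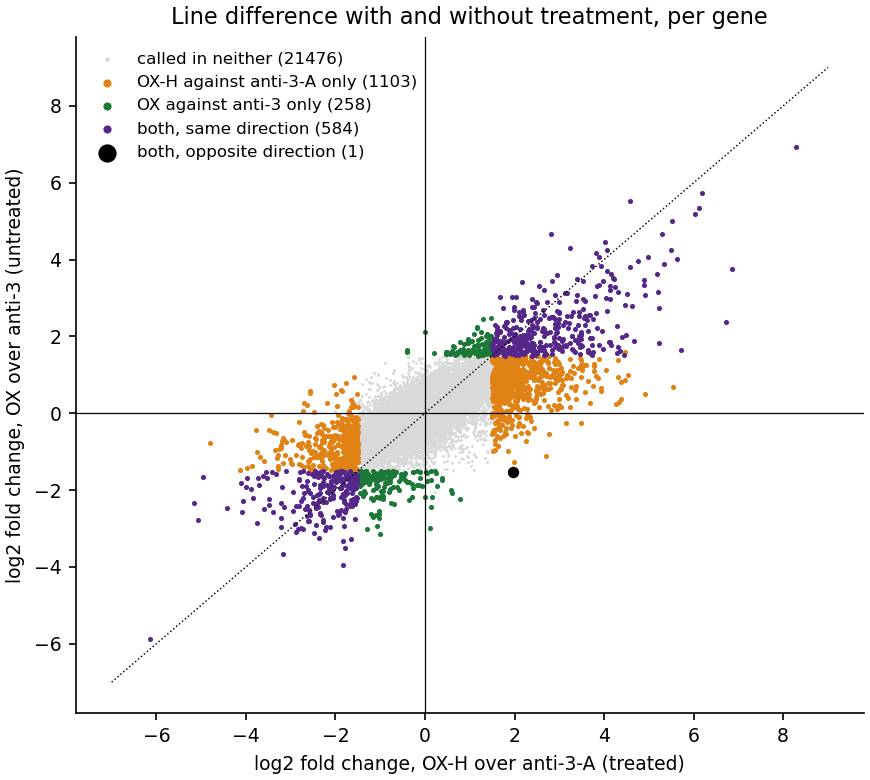
Each point is 1 gene, with the log2 fold change of OX-H over anti-3-A on the x axis and that of OX over anti-3 on the y axis. Colours give the 1103 DEGs called with treatment only, the 258 called without treatment only, the 584 called in both with the same direction and the 1 with opposite directions (black); points on the dotted line would differ equally in both.

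The position relative to WT differed between the groups. The raised DEGs had a median log2 fold change over WT of 1.91 in OX-H and -0.21 in anti-3-A. For lowered DEGs these medians were -1.69 in OX-H and 0.24 in anti-3-A. Over all genes, 1562 (6.67%) were called in OX-H against WT and 106 (0.453%) in anti-3-A against WT. The comparisons share the 3 WT libraries, and with OX-H against anti-3-A they share the treated libraries, so these values are given side by side and not as separate support.

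Gene functions were taken from the Gene Ontology (GO) terms of the study, which cover 434 of the 1688 DEGs. 35 GO terms were followed as gene lists, in all 381 genes, of which 308 were tested, 47 higher and 42 lower in OX-H. Of all 1728 tested genes with a GO term from the study, 434 (25.1%) were DEGs, 263 (15.2%) higher and 171 (9.90%) lower. List counts for OX-H against anti-3-A are to be read against these shares and not against the 7.21% over all genes. Such shares were not worked out for the untreated lines or for the change with treatment. Over all genes, 1.96% were higher and 1.64% lower in OX, and the change was called for 2.37%. List counts of those comparisons thus have no like share beside them. The study had chosen the genes under these terms for their change in anti-3 or OX against WT, and it grouped them partly by their values in the treated cells. Some of the lists were drawn from genes that had changed in OX and stayed changed in OX-H, so their direction is no independent evidence. Such genes occur in the lists for hydrogen peroxide catabolism, peroxidases, NADH dehydrogenase, xyloglucan transferases, chitin, cellulase, phenylpropanoids, cutin, nucleosome and photosynthesis. Their number is given with each list, and they occur in none of the other 25 lists. The study's other groups were also formed by whether values in treated cells came back. The direction of the other lists is therefore no independent evidence either. The poplar genome holds many near-identical gene copies, and how reads that match several of them were counted is not given in the sources used here. Values of single family members are therefore uncertain where copies are close.

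**Figure D3:**
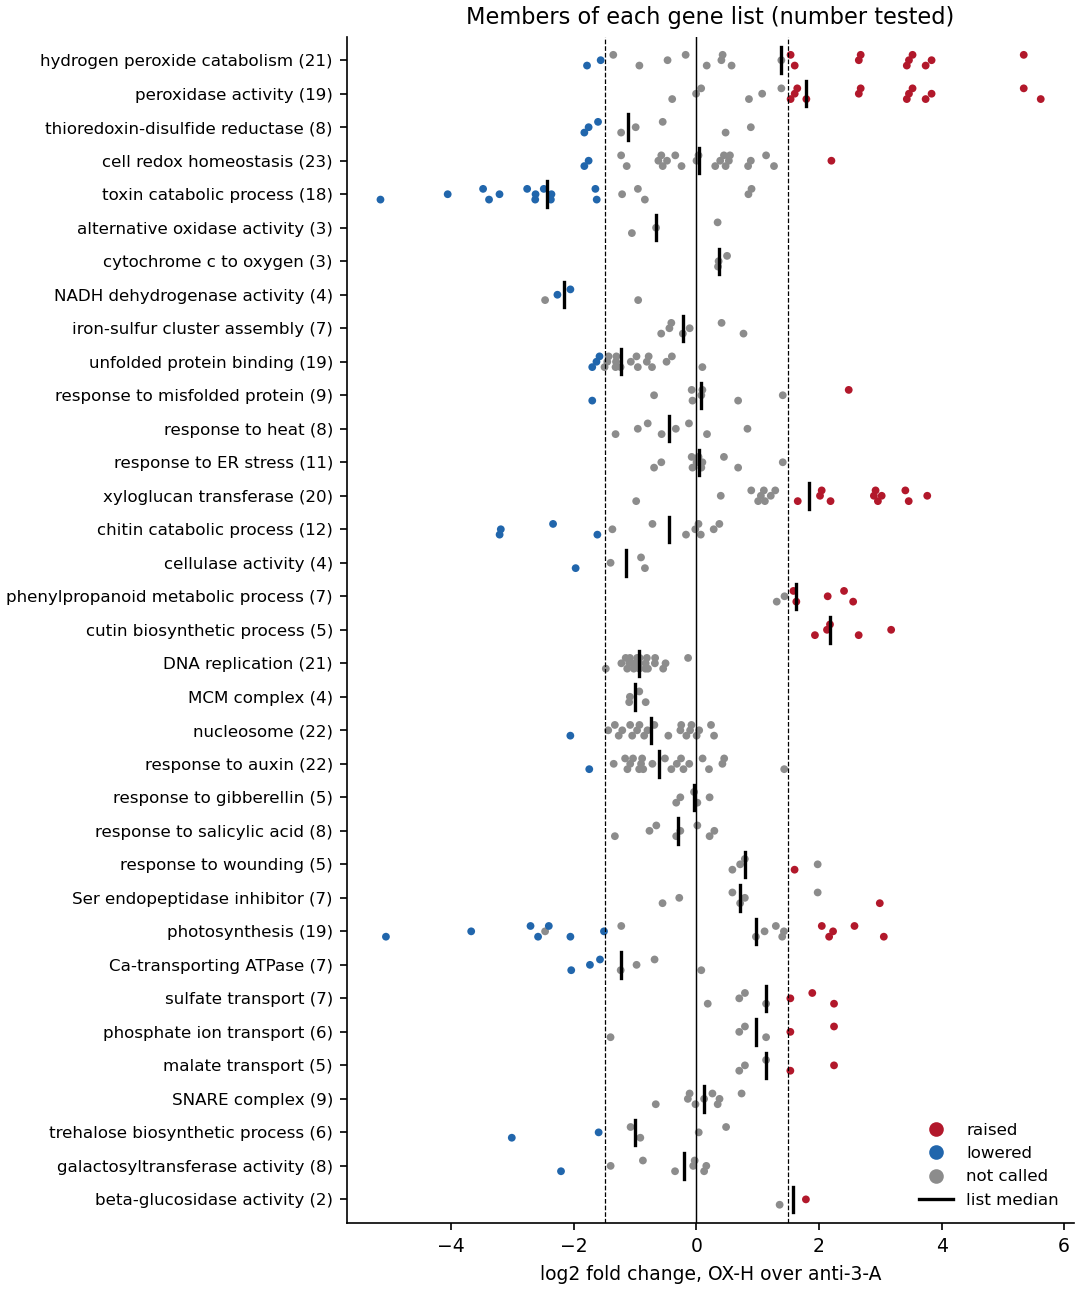
Rows are the 35 gene lists with the number of genes tested, and each point is 1 gene at its log2 fold change, OX-H over anti-3-A. Red and blue points were called higher and lower, grey points were not called, the black bar is the list median and dashed lines mark the fold change threshold; peroxidases, xyloglucan transferases and cutin genes lie to the right, and toxin catabolism genes to the left.

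Of the 35 lists, the peroxidases held the most raised DEGs. Of 19 tested genes with peroxidase activity, which oxidise phenolics and other substrates with H2O2, 13 were higher and 0 lower in OX-H, with a median log2 fold change of 1.79. Between untreated lines 11 were higher and 0 lower in OX. Of the 19, 12 belonged to the genes the study grouped as not normalized in OX-H, and these held 11 of the 13. Outside that group, 2 of 7 were higher. The largest change was in POPTR_1748s00200, with 50.1, 53.6 and 45.3 FPKM in OX-H, against 0, 0 and 0.0889 in anti-3-A (log2 fold change 5.62, SE 0.15, adjusted p = 1.1e-13). The 3 OX-H libraries held 1593 reads of this gene together, against 1 read in the 3 anti-3-A libraries. The untreated cells showed the same order at a lower level, 13.3, 15.1 and 22.3 FPKM in OX against 0.0842, 0 and 0.152 in anti-3, and the line difference was larger with treatment by 1.598 (SE 0.22, adjusted p = 2.9e-05). WT had 0.158 to 0.564 FPKM.

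The GO list for hydrogen peroxide catabolism, all of whose raised genes are also counted among the peroxidases, had 10 of 21 tested genes higher and 2 lower in OX-H (median 1.39). 9 of the 10 raised genes were among those grouped as not normalized in OX-H. POPTR_0011s00280 had 35.8, 44.7 and 40.7 FPKM in OX-H, against 0, 0 and 0.0539 in anti-3-A (log2 fold change 5.34, SE 0.13, adjusted p = 3.9e-14). The opposite direction was seen in POPTR_0013s08130, an abundant gene that is not among those grouped as not normalized in OX-H. It had 723, 680.3 and 713 FPKM in OX-H, against 2311, 2460 and 2537 in anti-3-A (-1.79, SE 0.09, adjusted p = 6.3e-11). Its untreated values were 473 ± 85.9 FPKM in OX and 1086 ± 36.4 in anti-3 (SD, n = 3 each), and the change of that difference with treatment did not pass either threshold (-0.57, adjusted p = 1.5e-03).

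Thioredoxin reductases pass electrons from NADPH to thioredoxin. Of 8 tested genes with thioredoxin-disulfide reductase activity 0 were higher and 3 lower in OX-H (median -1.11), and the same count, 0 and 3, was found between OX and anti-3. In POPTR_0010s07000 the values were 0.398, 0.335 and 0.550 FPKM in OX-H, against 3.69, 4.05 and 4.48 in anti-3-A (-1.83, SE 0.16, adjusted p = 6.1e-08). This gene was far higher without treatment, with 8.18 ± 2.50 FPKM in OX and 37.4 ± 1.32 in anti-3 (SD, n = 3 each). In the wider list for cell redox homeostasis, which shares 6 tested genes with the reductases, 1 of 23 genes was higher and 2 were lower, and the median was 0.03, its sign changing with the scaling. The raised gene, POPTR_0007s01400, is annotated as an oxidoreductase acting on sulfur groups. It had 6.38, 7.76 and 6.41 FPKM in OX-H, against 1.03, 0.406 and 0.720 in anti-3-A (2.203, SE 0.14, adjusted p = 1.2e-09). Its untreated lines were closer, at 17.7 ± 3.32 FPKM in OX and 16.002 ± 0.920 in anti-3, and the line difference changed with treatment by 2.08 (adjusted p = 7.8e-07).

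Of the 35 lists, glutathione transferases held the most lowered DEGs and had the lowest median. These enzymes attach glutathione to toxic or oxidised compounds. The GO list for toxin catabolism, all of whose genes are also annotated as glutathione transferases, had 0 of 18 tested genes higher and 13 lower in OX-H, with a median of -2.43. None of the 18 belonged to the genes grouped as not normalized in OX-H, but the study's other groups also rest on values of treated cells. Between untreated lines 0 were higher and 7 lower in OX (median -1.20), and the change of the line difference with treatment was called for 6. Both treated groups had lower medians than their untreated lines, at -3.80 for OX-H against OX and -2.07 for anti-3-A against anti-3. Relative to WT, it was -1.96 in OX-H and 0.41 in anti-3-A. The largest fall was in POPTR_0006s02510, with 3.16, 1.51 and 2.01 FPKM in OX-H, against 109.6, 109.5 and 115 in anti-3-A (-5.16, SE 0.12, adjusted p = 2.4e-14). Untreated OX had 84.2 ± 5.29 FPKM, untreated anti-3 had 432 ± 16.3 and WT had 65.0 ± 1.97 (SD, n = 3 each). OX-H was therefore lowest of the 5 groups and anti-3 highest, with no overlap between any of them.

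**Figure D4:**
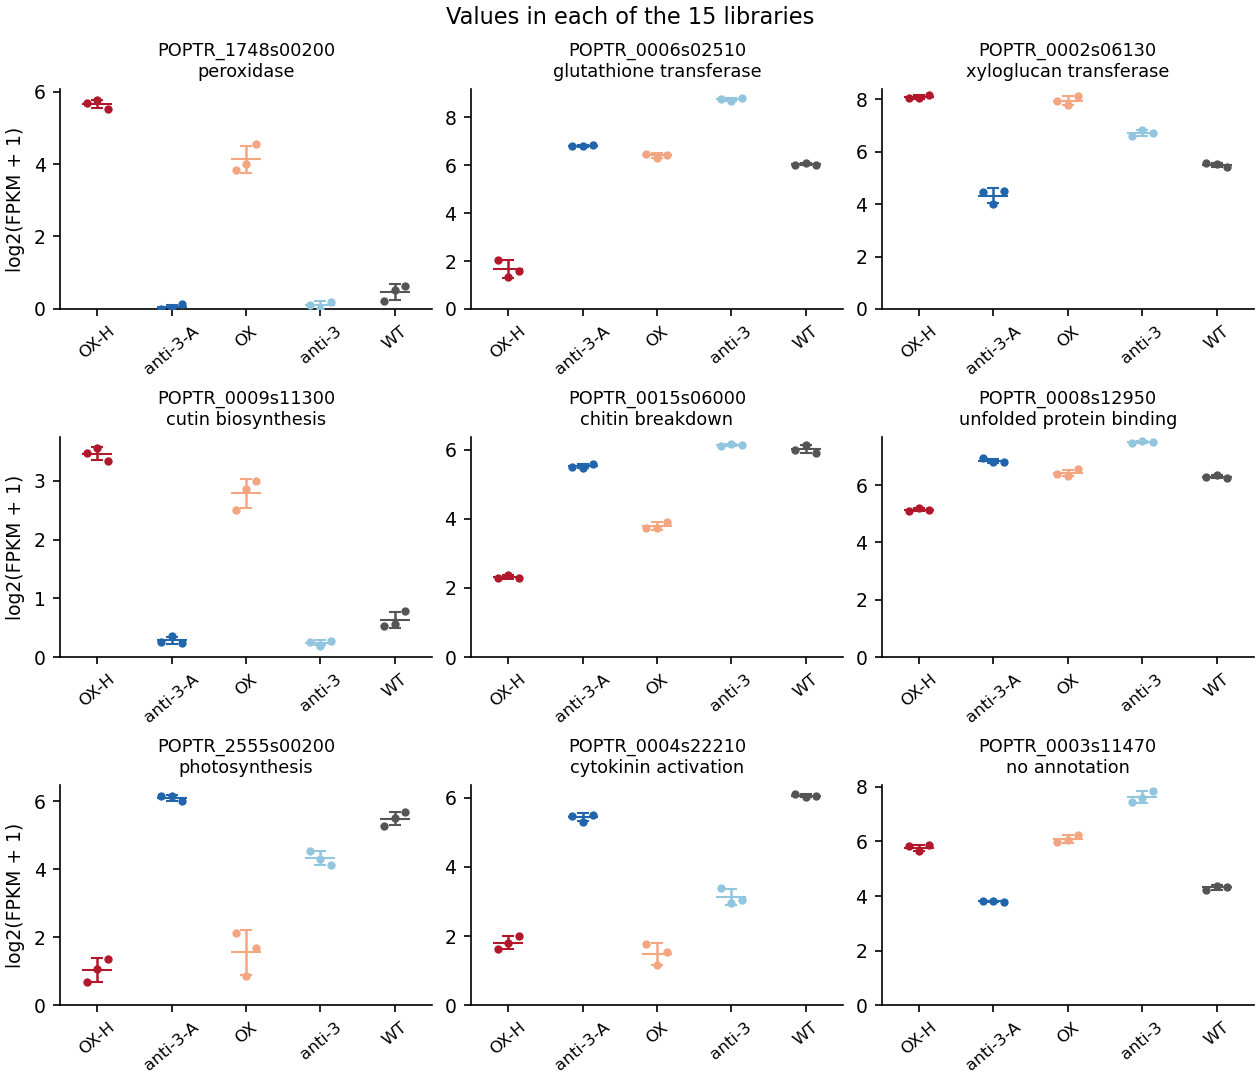
Each panel is 1 gene, with log2(FPKM + 1) on the y axis and the groups OX-H, anti-3-A, OX, anti-3 and WT on the x axis; points are the 3 libraries of a group, and the bar with whiskers is their mean ± SD. OX-H and anti-3-A libraries do not overlap in any of the 9 panels. All 9 genes are DEGs, no DEG had overlapping libraries, and 74.5% of all genes tested did not overlap either. In the last panel the order of the lines is turned round in the untreated cells.

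The 3 genes for transfer of electrons from cytochrome c to oxygen had OX-H over anti-3-A log2 fold changes of 0.50, 0.36 and 0.35, and 0 passed the fold threshold. The most abundant, POPTR_0013s10300, had 322, 323 and 329 FPKM in OX-H, against 250.3, 220.2 and 218 in anti-3-A. Of the 3 alternative oxidase genes, which encode the cyanide-insensitive terminal oxidase that limits H2O2 formation in plant mitochondria, 0 were called. POPTR_0003s10290 had 1.38, 1.97 and 1.83 FPKM in OX-H, against 6.59, 3.39 and 4.38 in anti-3-A (-1.05, adjusted p = 6.7e-05). POPTR_0015s02150 had 7.97 ± 0.601 FPKM in OX-H and 13.1 ± 0.683 in anti-3-A, and POPTR_0011s00890 had 8.12 ± 0.705 in OX-H and 6.19 ± 0.811 in anti-3-A. All 3 were higher in both untreated lines than in either treated group, POPTR_0003s10290 at 50.2 ± 3.32 FPKM in OX and 70.6 ± 7.29 in anti-3. The 7 genes for iron-sulfur cluster assembly, which build cofactors of the chain, gave 0 calls.

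The 4 genes under NADH dehydrogenase activity were all lower in OX-H (median -2.16), 2 of them as DEGs. All 4 were among the genes grouped as not normalized in OX-H, 2 of them are also listed under photosynthesis, and all had few reads. POPTR_0011s02220 had 0, 0 and 0.395 FPKM in OX-H, against 5.87, 3.43 and 4.12 in anti-3-A (-2.27, SE 0.26, adjusted p = 9.0e-07), from 3 and 98 reads. POPTR_0018s08070 had no read in any OX-H library, against 2.52, 4.12 and 3.00 FPKM in anti-3-A. With the 3 reads that a count of 0 allows over the 3 libraries it was at least 15.3-fold lower in OX-H. POPTR_0028s00410 also had no read in OX-H, against 5.37, 4.39 and 3.94 FPKM in anti-3-A, at least 70.6-fold lower, but it was not a DEG (adjusted p = 1.1e-03). Its WT libraries had 0.604, 19.99 and 3.13 FPKM, and WT enters the common estimate of the spread. POPTR_0008s17790 had 0.360 ± 0.0161 FPKM in OX-H and 1.63 ± 0.168 in anti-3-A (-0.95), and was called with a pseudocount of 0.1 (-1.91).

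Photosynthesis genes, measured here in cells kept in the dark, split in both directions. Of 19 tested, 5 were higher and 7 lower in OX-H. The lowered genes were among the 9 grouped as not normalized in OX-H, and the 5 raised ones were among the other 10. The counts were 7 higher and 6 lower when library medians were aligned, and the list median of 0.97 became -0.14 when low genes were kept. Between untreated lines 1 was higher and 1 lower. POPTR_2555s00200, annotated to a plastid part, had 0.601, 1.10 and 1.57 FPKM in OX-H, against 70.8, 69.8 and 63.1 in anti-3-A (-5.07, SE 0.24, adjusted p = 4.0e-11). POPTR_0010s22790, annotated to light harvesting in photosystem I, had 18.4, 22.1 and 17.1 FPKM in OX-H, against 1.53, 1.08 and 1.69 in anti-3-A (3.06, SE 0.18, adjusted p = 5.4e-10). The libraries of WT had 38.1, 44.1 and 50.3 FPKM of the first gene and 1.97, 1.21 and 1.16 FPKM of the second, so anti-3-A lay above WT for the first and overlapped WT for the second.

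Chaperone genes lay below anti-3-A together, mostly by less than the fold threshold. Genes for unfolded protein binding, the chaperones that hold or refold other proteins, were below anti-3-A in 18 of 19 cases with a median of -1.24, and 0 were called higher and 3 lower. The 3 became 5 without OX-H replicate 1, without anti-3-A replicate 1 or without anti-3-A replicate 3, and 6 with a pseudocount of 0.1 or 0.5. The count was 2 with library medians aligned and 4 with quantile normalization. When the fold threshold was set to 1.5-fold, in place of 1.5 on the log2 scale, 16 of 19 were lowered, beside 21.1% of all genes. The share among genes with a GO term from the study was not worked out at this threshold. Between untreated lines the median of the unfolded protein binding list was -0.71, with 0 genes called. The change of the line difference with treatment was called for 0 of its genes. POPTR_0008s12950 had 33.2, 35.6 and 33.8 FPKM in OX-H, against 121, 109.7 and 109.6 in anti-3-A (-1.70, SE 0.06, adjusted p = 1.2e-12). In the list for topologically incorrect protein, which names POPTR_0008s12950 too, 1 gene was higher and 1 lower of 9. The higher one, the ubiquitin-protein transferase POPTR_0001s41200, had 38.5, 35.6 and 41.0 FPKM in OX-H, against 7.40, 4.48 and 6.54 in anti-3-A (2.49, SE 0.12, adjusted p = 7.4e-11). Untreated it had 61.6 ± 4.03 FPKM in OX and 39.997 ± 4.46 in anti-3. The lists for heat (8 genes) and endoplasmic reticulum stress (11 genes) gave 0 calls.

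Next to the peroxidases, the most raised DEGs were found among cell wall genes. Xyloglucan:xyloglucosyl transferases cut and rejoin xyloglucan chains between cellulose fibrils. Of 20 tested, 11 were higher and 0 lower in OX-H (median 1.84). Between untreated lines 3 were higher and 1 lower in OX (median 0.62), and the change of the line difference with treatment was called for 8. Of the 11 raised genes, 7 were among 9 grouped as not normalized in OX-H and 4 among the other 11. The largest change was in POPTR_0002s06130, with 264, 261 and 289 FPKM in OX-H, against 21.3, 14.9 and 21.5 in anti-3-A (3.77, SE 0.11, adjusted p = 2.5e-13). Untreated OX had 248 ± 28.0 FPKM, much like OX-H, whereas untreated anti-3 had 104 ± 8.09, well above anti-3-A (SD, n = 3 each). The list medians showed the same pattern, at 0.39 for OX-H against OX and -1.501 for anti-3-A against anti-3.

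Genes for surface and phenolic polymers were also higher in OX-H. Cutin is the lipid polyester of the plant cuticle, and all 5 tested genes for cutin biosynthesis were higher (median 2.18), 4 of them grouped as not normalized in OX-H. POPTR_0009s11300 had 10.1, 10.8 and 9.15 FPKM in OX-H, against 0.192, 0.283 and 0.183 in anti-3-A (3.18, SE 0.12, adjusted p = 4.0e-12). Untreated cells showed the same order, with 5.97 ± 1.16 FPKM in OX, below OX-H in every library, and 0.184 ± 0.0375 in anti-3. Phenylpropanoid metabolism, which makes lignin precursors and flavonoids, had 5 of 7 tested genes higher and 0 lower (median 1.63), all 7 grouped as not normalized in OX-H. POPTR_0009s14740 had 5.61, 6.87 and 6.13 FPKM in OX-H, against 0.182, 0.393 and 0.104 in anti-3-A (2.56, SE 0.16, adjusted p = 7.1e-10). Neither gene's line difference changed with treatment past the thresholds.

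In the list for chitin catabolism, whose chitinases act on fungal walls, 0 of 12 were higher and 4 lower (median -0.44), all 4 among the 5 grouped as not normalized in OX-H. POPTR_0015s06000 had 3.90, 4.21 and 3.85 FPKM in OX-H, against 44.7, 43.3 and 47.6 in anti-3-A (-3.21, SE 0.07, adjusted p = 8.2e-15), with 12.9 ± 1.04 in OX and 69.7 ± 1.24 in anti-3. All 4 cellulase genes, each grouped as not normalized in OX-H, were below anti-3-A, and 1 passed the threshold. This was POPTR_0003s13940, with 16.2, 15.3 and 17.3 FPKM in OX-H, against 66.0, 60.3 and 73.8 in anti-3-A (-1.97, SE 0.09, adjusted p = 1.6e-11). POPTR_0003s14740 missed it narrowly (-1.40) and became a DEG without anti-3-A replicate 2 (-1.62) or without OX-H replicate 3 (-1.51). POPTR_0006s04670 (-0.90) and POPTR_0014s15590 (-0.84) were not called, although POPTR_0014s15590 was with a pseudocount of 0.1 (-2.12). In both untreated lines POPTR_0003s13940 was lower than in the treated cells of the same line, at 5.42 ± 0.586 FPKM in OX and 20.6 ± 1.68 in anti-3.

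DNA replication genes lay below anti-3-A as a block, with 0 DEGs. All 21 tested genes had a negative log2 fold change, with a median of -0.93 and a range of -1.48 to -0.14, and the median between OX and anti-3 was -0.18. At the 1.5-fold threshold 18 of 21 were lowered, beside 21.1% of all genes, and 0 were raised, beside 15.3%. The shares among genes with a GO term from the study were not worked out at this threshold. The 4 genes of the MCM complex, the helicase that opens the DNA at replication origins, are part of the DNA replication list. POPTR_0009s12440 had 12.1, 12.1 and 11.2 FPKM in OX-H, against 24.6, 26.9 and 26.9 in anti-3-A (-1.09, SE 0.07, adjusted p = 1.1e-09). The other MCM genes gave -1.10 (POPTR_0004s13660), -0.93 (POPTR_0001s12380) and -0.83 (POPTR_0006s20300). In the untreated lines the MCM genes lay far lower and close together, with 3.81 ± 0.125 FPKM in OX and 4.71 ± 0.362 in anti-3 for POPTR_0009s12440. WT had 17.1 ± 0.636, between OX-H and anti-3-A. The list medians were -0.50 for OX-H and 0.48 for anti-3-A relative to WT. Of 22 nucleosome genes, which encode histones and related proteins, 6 were grouped as not normalized in OX-H, and 1 of these 6 was the only DEG. This was POPTR_0003s22120, with 5.27, 3.40 and 6.37 FPKM in OX-H against 25.9, 23.1 and 21.7 in anti-3-A (-2.06, SE 0.15, adjusted p = 4.4e-09). At the 1.5-fold threshold 11 of the 22 nucleosome genes were lowered and 0 raised. In the list for the auxin response 11 of 22 were lowered and 1 raised.

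**Figure D5:**
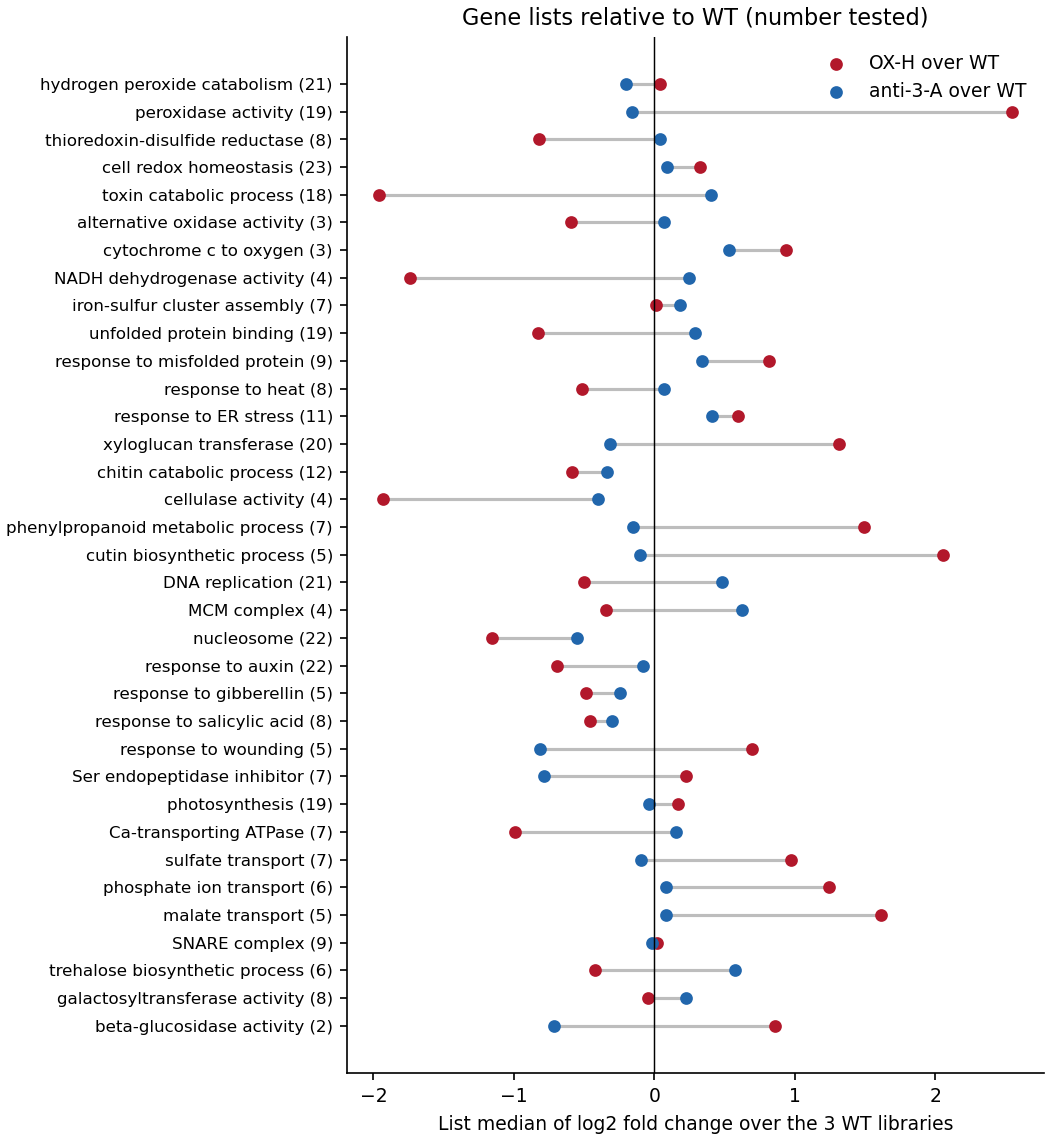
Rows are the 35 gene lists with the number of genes tested, and the x axis is the median log2 fold change of a list's genes relative to the 3 WT libraries, in OX-H (red) and in anti-3-A (blue), both computed with the same WT libraries. Peroxidases lie at 2.55 in OX-H and -0.16 in anti-3-A, toxin catabolism at -1.96 and 0.41, and DNA replication at -0.50 and 0.48.

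In the auxin response 0 of 22 genes were higher and 1 lower, POPTR_0010s12320, annotated to auxin efflux, the export that moves this hormone between cells. It had 13.8, 13.9 and 15.5 FPKM in OX-H, against 49.4, 50.8 and 51.7 in anti-3-A (-1.75, SE 0.09, adjusted p = 8.6e-11), and 1 raised auxin gene was added when library medians were aligned. Lists for gibberellin (5 genes) and salicylic acid (8 genes) gave 0 calls. Of 5 wounding genes, 1 was higher. POPTR_0006s14160 had 9.11, 10.3 and 10.1 FPKM in OX-H, against 3.11, 1.94 and 2.75 in anti-3-A (1.602, SE 0.12, adjusted p = 7.7e-09), and fell under the fold threshold without anti-3-A replicate 2 (1.46). Of 7 serine endopeptidase inhibitors, 1 was higher, POPTR_0010s08640, at 18.6, 7.46 and 6.08 FPKM in OX-H, against 0.538, 0 and 0.512 in anti-3-A (2.99, SE 0.34, adjusted p = 9.3e-07). It rests on 6 reads in anti-3-A. Both genes were higher in the untreated lines than in either treated group.

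Transport and sugar genes gave smaller counts. Of 7 calcium-transporting ATPases, pumps that clear calcium from the cytosol, 0 were higher and 3 lower in OX-H (median -1.24), and POPTR_0008s15890 had 1.24, 1.03 and 1.34 FPKM in OX-H, against 9.74, 7.15 and 7.52 in anti-3-A (-2.04, SE 0.11, adjusted p = 2.7e-10). Its untreated values, 30.9 ± 3.76 FPKM in OX and 96.7 ± 4.24 in anti-3, kept the order of the lines at higher levels. The overlapping lists for sulfate, phosphate and malate transport had 3 of 7, 2 of 6 and 2 of 5 genes higher and 0 lower. POPTR_0007s03520, named in all 3 lists and annotated to dicarboxylate transport, had 5.95, 6.49 and 6.58 FPKM in OX-H, against 0.368, 0.843 and 0.467 in anti-3-A (2.25, SE 0.12, adjusted p = 1.4e-10). Its untreated lines were closer, at 7.81 ± 0.109 in OX and 5.39 ± 0.277 in anti-3. Without OX-H replicate 1 or without anti-3-A replicate 2 the called transport genes were 2 for sulfate and 1 each for phosphate and malate.

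Trehalose biosynthesis had 2 of 6 genes lower, 1 when library medians were aligned and 4 with voom on whole reads. POPTR_0012s14700, a trehalose-phosphatase that makes the sugar from its phosphate, had 1.31, 0.885 and 1.17 FPKM in OX-H, against 17.5, 15.1 and 15.7 in anti-3-A (-3.01, SE 0.09, adjusted p = 1.8e-13). Among 8 galactosyltransferases 1 was lower. POPTR_0013s00730, annotated as an inositol galactosyltransferase, the enzyme of the first step to raffinose sugars, had 0.0889, 0.0408 and 0 FPKM in OX-H, against 4.57, 4.01 and 3.02 in anti-3-A (-2.21, SE 0.15, adjusted p = 2.0e-09). It was near 0 in OX too (0.0371 ± 0.0359 FPKM) and expressed in anti-3 (7.18 ± 1.26) and WT (2.02 ± 0.484). Of 2 beta-glucosidases tested, 1 was higher, POPTR_0001s23070, with 2.83, 2.49 and 3.51 FPKM in OX-H, against 0.190, 0.150 and 0.0724 in anti-3-A. The 9 SNARE genes of vesicle fusion gave 0 calls.

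Of the 15 genes the study names in its account of these transcriptomes, 14 were tested and 3 were DEGs. The study picked them on libraries of this series, so they are no independent evidence. The cytokinin riboside phosphoribohydrolase POPTR_0004s22210, whose product releases active cytokinin, had 2.08, 2.51 and 3.01 FPKM in OX-H, against 43.8, 38.4 and 44.6 in anti-3-A (-3.62, SE 0.14, adjusted p = 4.9e-12). It had 1.85 ± 0.595 FPKM in OX, 7.85 ± 1.46 in anti-3 and 65.9 ± 1.93 in WT (SD, n = 3 each). The line difference changed with treatment by -1.97 (adjusted p = 1.6e-06), with a log2 fold change of 0.33 for OX-H against OX and 2.30 for anti-3-A against anti-3. The UDP-glycosyltransferase POPTR_0001s05400 had 18.3, 17.8 and 18.3 FPKM in OX-H, against 74.9, 67.9 and 68.3 in anti-3-A (-1.90, SE 0.08, adjusted p = 5.5e-12). POPTR_0014s08130, named as a phosphatase in the paper and annotated to cutin biosynthesis in its GO table, had 18.9, 18.4 and 19.2 FPKM in OX-H, against 1.81, 2.50 and 2.21 in anti-3-A (2.65, SE 0.13, adjusted p = 5.7e-11). Both groups were below WT for this gene, which had 48.6 ± 3.15 FPKM.

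The other named genes were closer. The phosphatidylinositol-4-phosphate 5-kinase POPTR_0005s15850 had 35.5 ± 2.16 FPKM in OX-H and 80.3 ± 5.85 in anti-3-A (-1.15). The inorganic pyrophosphatases POPTR_0005s01840 and POPTR_0006s08250 were 0.92 and 0.78 higher in OX-H on the log2 scale. POPTR_0007s09470, a phosphatase family gene, had 3.54 ± 0.338 FPKM in OX-H and 3.36 ± 0.263 in anti-3-A, a log2 difference of 0.06 (SE 0.12, adjusted p = 0.68). The remaining UDP-glycosyltransferases gave 1.06 (POPTR_0006s02390), 0.26 (POPTR_0545s00210), 0.19 (POPTR_0009s15190) and -0.20 (POPTR_0003s14230). POPTR_0016s05500, an alkaline alpha-galactosidase, gave -0.29, POPTR_0013s14030, a phosphatase, -0.64, and POPTR_0009s01600, another cytokinin riboside phosphoribohydrolase, -0.89. POPTR_0016s09180, of the same kind, stayed below the filter with 0.605 ± 0.502 FPKM in OX-H and 0.470 ± 0.0404 in anti-3-A.

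Of the 2 largest rises and the 2 largest falls over all genes, 3 lay outside the lists. POPTR_0008s13040, annotated to the response to biotic stimulus, had 682, 849 and 686 FPKM in OX-H, against 1.44, 1.41 and 1.17 in anti-3-A (8.30, SE 0.17, adjusted p = 6.5e-15). Untreated OX had 609 ± 85.1 FPKM, anti-3 had 3.98 ± 0.682 and WT had 31.0 ± 8.61, so the line difference was present without treatment (6.94). Novel00020, a feature with no POPTR number and no given function, had 201, 234.5 and 229.5 FPKM in OX-H, against 1.70, 0.515 and 0.748 in anti-3-A (6.85, SE 0.21, adjusted p = 3.0e-13). In OX it had 23.9 ± 6.10 FPKM, and the line difference grew with treatment by 3.10 (adjusted p = 7.8e-07). Among falls, POPTR_0014s04770, for which no function is given, had 1.195, 0.470 and 0.447 FPKM in OX-H, against 103, 133 and 118 in anti-3-A (-6.15, SE 0.13, adjusted p = 1.2e-14). It was as low in OX (0.759 ± 0.207) and as high in anti-3 (102 ± 3.67) and WT (126 ± 4.60), and its line difference did not change with treatment past the thresholds (-0.27, adjusted p = 0.26). The glutathione transferase POPTR_0006s02510, described above, was the other of the 2 largest falls.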

How the data were processed

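The authors filtered the reads and mapped them to the Populus trichocarpa genome, with SOAPaligner/SOAP2 according to the paper and with TopHat2 2.0.12, Bowtie2 2.2.3 and HTSeq 0.6.1 according to the submitters' processing notes. The authors deposited FPKM values per gene, which divide reads by gene length and mapped total. The sources used here do not give the genome release, the strand setting or the handling of multiply mapped reads. Tables of the authors' own comparisons with WT (log2 ratios and p-values) were not used. Composition of a library shifts all its FPKM values, and no further scaling was applied.

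Libraries were grouped by their labels. Python (numpy 2.4.6, pandas 2.3.3) worked whole reads back from the steps of the FPKM values: each of the 445124 nonzero values gave a whole number (tolerance 0.0001 reads), with 15618191 to 21278437 reads per library. Low counts are imprecise, and floors cover counting error only. Genes reaching 1 FPKM in 3 or more of the 6 libraries were fitted as log2(FPKM + 1) with limma-trend (limma 3.58.1, R 4.3.3), 1 mean per group over all 15 libraries. Contrasts were OX-H minus anti-3-A, OX minus anti-3 and their difference, with Benjamini-Hochberg adjustment over all 23422 genes. The code of the fit was checked on simulated reads with the same spread for every gene. Real replicates spread unevenly, so this check does not give the error rate of the calls. Named genes were those the study names, the 2 largest rises and 2 largest falls among DEGs with non-overlapping libraries, in each list the DEG with the largest change and the largest in the opposite direction, and every tested gene of lists of up to 4 genes. Members and lists were chosen with earlier results of these data known. Alternatives were other pseudocounts, filters, scalings, thresholds and fits, voom on whole reads, a replicate block and each library left out. No feature ID matched the reference gene table used here, which is of P. tomentosa.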

Additional observations from a re-analysis of the deposited data

Results flagged for a closer look

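For 13 of the named genes the line difference itself changed with treatment, as tested by the contrast of OX-H minus anti-3-A less OX minus anti-3 (limma, adjusted p below 0.001 and an absolute change above 1.5 on the log2 scale). The change was positive for POPTR_0003s11470 (3.50, the gene whose line order is turned round), Novel00020 (3.10), the serine endopeptidase inhibitor POPTR_0010s08640 (2.62), the xyloglucan transferase POPTR_0002s06130 (2.53), the oxidoreductase POPTR_0007s01400 (2.08), the ubiquitin-protein transferase POPTR_0001s41200 (1.87), the dicarboxylate transporter POPTR_0007s03520 (1.78) and the peroxidase POPTR_1748s00200 (1.6). It was negative for the glutathione transferase POPTR_0006s02510 (-2.81), POPTR_2555s00200 of the photosynthesis list (-2.29), the cytokinin gene POPTR_0004s22210 (-1.97), the NADH dehydrogenase gene POPTR_0011s02220 (-1.96) and the trehalose-phosphatase POPTR_0012s14700 (-1.81). Untreated line differences were smallest for POPTR_0007s01400 (0.12), POPTR_0011s02220 (-0.30) and POPTR_0010s08640 (0.37) among the 13.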

How the results depend on the processing

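Most counts stayed within 1.5 times their value. A pseudocount of 0.1 gave 2640 DEGs for OX-H against anti-3-A, 1128 of them lowered, 1534 for OX against anti-3, and 1127 shared with the same direction. Voom on whole reads gave 2747, 1184, 1615 and 1185 for the same 4 counts. The cause was not tested. A fold change above 1.5-fold, in place of 1.5 on the log2 scale, gave 8534 DEGs (3594 raised, 4940 lowered), 6182 for OX against anti-3, 3987 shared and 3698 genes whose line difference changed with treatment. With 1 library left out, DEGs ranged from 1660 to 1750 (1039 to 1096 raised, 605 to 662 lowered), those of OX against anti-3 from 816 to 877, shared DEGs from 568 to 606 and changes with treatment from 537 to 565. Deviations of same-numbered OX-H and anti-3-A libraries correlated at -0.03 to 0.05, and a replicate block gave 1687 DEGs. No pairing by replicate number was seen in these values, which cannot show that same-numbered libraries shared no culture or batch. Of 59 named genes tested, 0 changed direction. POPTR_0006s14160 lost its call without anti-3-A replicate 2 (1.46), and POPTR_0028s00410 gained one when only the compared groups were fitted (adjusted p = 2.6e-07), and also at 1.1e-03 (threshold 0.05), 1.1e-05 (pseudocount 0.1) and 2.6e-04 (pseudocount 0.5). POPTR_0014s15590 and POPTR_0008s17790 gained calls with voom on whole reads (-2.62 and -2.11) and with a pseudocount of 0.1, and POPTR_0003s14740 did as well (-1.53 and -1.52). With a pseudocount of 0.1 the lowered genes were 5 thioredoxin reductases, 4 NADH dehydrogenases, 3 cellulases and 5 calcium ATPases, in place of 3, 2, 1 and 3. With library medians aligned these 4 counts were 2, 2, 1 and 2. With a minimum of 5 FPKM, 3 of 3 phenylpropanoid and 2 of 2 cutin genes tested were raised, in place of 5 of 7 and 5 of 5. Called genes within lists also moved with single libraries: without OX-H replicate 1 the lowered nucleosome genes were 2 in place of 1, without OX-H replicate 2 the lowered H2O2 catabolism genes were 1 in place of 2, and without OX-H replicate 2 or anti-3-A replicate 1 the raised beta-glucosidases were 2 in place of 1.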

Other observations

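The study's GO term for the response to biotic stimulus, looked at after POPTR_0008s13040 had come out with the largest rise, had 13 tested genes, of which 11 were higher and 0 lower in OX-H (median log2 fold change 2.42, and 1.41 between OX and anti-3). The study drew this term from genes that were raised in OX and not normalized in OX-H, so its direction is no independent evidence. POPTR_0004s03290 had 234, 271 and 239 FPKM in OX-H, against 32.1, 39.6 and 27.1 in anti-3-A (2.89, SE 0.11, adjusted p = 4.0e-12). POPTR_0004s03300 had 95.9, 94.6 and 89.9 FPKM in OX-H, against 5.71, 8.72 and 5.02 in anti-3-A (3.69, SE 0.26, adjusted p = 4.1e-09), and its line difference was larger with treatment by 2.13 (adjusted p = 2.3e-04). The term shares POPTR_0009s11300 with cutin biosynthesis.

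Features with an ENSRNA identifier in place of a POPTR number were called in 19 of 78 cases (24.4%), 2 higher and 17 lower in OX-H. Of all genes tested 7.21% were called, 4.51% higher and 2.69% lower. The median of the 78 was -0.95, beside -0.13 over all genes.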
